A study of Mus musculus with 38 samples.

Results

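Cohesin is the protein ring that holds sister chromatids together from replication until anaphase, and the genes described here encode its subunits, its release factor Wapl and the protease that opens it. They are 10 of the 23125 genes of the deposited table and were picked by gene symbol, by a rule that uses no measured value. The kleisins are Rec8 and Rad21, the SMC subunits are Smc1a, Smc1b and Smc3, and the SA subunits are Stag1, Stag2 and Stag3. Wapl takes cohesin off chromosome arms and Espl1 encodes separase. Shugoshins, which protect centromeric cohesin, are not among the 10, and Sgo1, Sgo2a and Sgo2b are given from a separate list of pathway genes.

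In meiosis, cohesin is built with the kleisin Rec8 and with the meiotic subunits Smc1b and Stag3, whereas Rad21, Smc1a, Stag1 and Stag2 form the mitotic ring, and Smc3 is common to both. In mouse oocytes the meiotic rings are loaded on chromosomes before birth, hold the chromosomes together during the long prophase arrest and are cleaved by separase in the divisions of meiosis. After fertilization the embryo uses the mitotic ring, while its early proteins still come from maternal mRNA.

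RNA of polysome and non-polysome fractions was sequenced from mouse oocytes and embryos of the ICR strain at 6 stages, with 3 libraries per stage and fraction and 36 in all. GV oocytes, arrested in prophase, were taken before culture (0 h), and MII oocytes, arrested in metaphase, after 12 h of culture. Zygotes were collected in interphase 16 h after hCG and mating, and two-cell embryos were grown from zygotes in culture. Zygote M and two-cell M are embryos in mitosis, and both had been treated with 10 µM nocodazole, which the GV, MII, zygote and two-cell samples had not. Between an embryo in M-phase and the same embryo in interphase, M-phase and nocodazole therefore cannot be told apart. Between MII and an embryo M-phase group, both in M-phase, the same holds for nocodazole and the change from oocyte to embryo. The titles name these groups as embryos, although the treatment field of the labels gives meiosis for them. The females were at least 6 weeks old, and no group carries a transgene. The number of oocytes or embryos behind a library is not given in the sources used here, and the labels do not tie replicates to animals, so p-values measure the spread between these samples.

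Each gradient was cut into 10 fractions, of which the lightest 5 were pooled as non-polysome and the heaviest 5 as polysome RNA. Levels are in FPKM, fragments scaled to transcript length and to the mapped fragments of the library, so that genes of different length can be compared. The smallest value in every library is 0.01 FPKM, an offset that stands for no signal. From the step of values in single-exon genes, the depth was estimated at 8.49 to 26.7 M fragments per library (median 21.05 M). The 7 oocyte markers summed to 3990 to 5330 FPKM in GV polysomes and to 48.1 to 183 FPKM in those of two-cell M, with 11.3 FPKM as the lowest sum of any library. Gdf9 (2.2 to 2490 FPKM) and Ooep (8.07 to 3760 FPKM) were above the offset in every library, while Nlrp5 fell to 0.0137 FPKM and Zp2 to the offset. The 7 markers listed for two-cell embryos, such as Zscan4d and Tcstv3, did not mark that stage in polysomes, where they summed to 176 to 323 FPKM in GV, 121 to 187 FPKM in two-cell and 10.2 to 135 FPKM in two-cell M. In the non-polysome fraction the sum was highest in two-cell embryos, at 414 to 711 FPKM. Two-cell M libraries had 9542 to 12042 genes above the offset in polysomes and 8538 to 9271 in the non-polysome fraction, and all other libraries 10099 to 17066. In bulk RNA, fewer molecules per cell and fewer cells per library cannot be told apart.

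The genes lie on several chromosomes (GRCm38, GENCODE M21 positions). Rec8 is at chr14:55618037-55625395, Rad21 at chr15:51962240-51991747, Smc1a at chrX:152016428-152062694 and Smc3 at chr19:53600398-53645833. Stag3 is at chr5:138280240-138312393, Wapl at chr14:34673928-34747983 and Espl1 at chr15:102296266-102324357. In oocytes, elements in the 3′ UTR near the poly(A) signal take part in deciding which stored mRNAs enter polysomes, so the ends of the transcripts are shown for members that the results below turn on. Each line gives 30 bases at the 3′ end of the longest coding GENCODE M21 transcript, on the transcript strand, with the poly(A) signal in capitals. The windows lie in the 3′ UTR, and that of Rec8, whose 3′ UTR is short, begins in the last coding bases. The windows are chr14:55625358-55625387 (plus strand) for Rec8, chr15:51962240-51962269 (minus strand) for Rad21, chrX:152062663-152062692 (plus) for Smc1a, chr5:138312357-138312386 (plus) for Stag3, chr14:34747948-34747977 (plus) for Wapl and chr15:102324324-102324353 (plus) for Espl1.
Rec8: ctgagcaagttcATTAAAccatatcctgcc
Rad21: aaggtgagtttctgagcAATAAAagatttg
Smc1a: tagggtttatctAATAAAtagagcctgagg
Stag3: tgccaaactttcAATAAAcatgttcagcta
Wapl: aattttaactcaAATAAAattgatacttta
Espl1: taatgtgaccttAATAAAgatattccaagc

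The signals AATAAA or ATTAAA were searched for in the last 40 bases of the longest coding transcript. They occur there in 8 of the 10 genes, against 76.73% of 14916 protein-coding genes. Those 14916 are the genes whose 3′ UTR is at least as long as the window. Rec8, with a 3′ UTR of 34 bases, falls short of this but is counted among the 10. Smc1b and Smc3 hold neither in these 40 bases. The cytoplasmic polyadenylation element was searched for as TTTTAT or TTTTAAT in the last 100 bases, on the transcript strand only. It was found in none of the 10 genes, against 18.52% of the same 14916 protein-coding genes. In Sgo2a of the shugoshins it was found once, starting 63 bases before the end. These matches describe the annotated ends, and other ends of the same genes were not searched.

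The separase gene Espl1 was by far the most abundant of the 10, with a geometric mean of 2.63 FPKM over the 36 libraries, and the only one above 0.1 FPKM in every library. Wapl (0.114 FPKM), Smc1a (0.104 FPKM) and Smc3 (0.102 FPKM) followed. Rad21 came to 0.0741, Smc1b to 0.0377, Stag2 and Stag3 to 0.0225 each, Stag1 to 0.015 and Rec8 to 0.012 FPKM. The ring genes were therefore read from few fragments. Converted with the longest coding transcript, the median library held about 344 fragments of Espl1, 10.2 of Wapl, 9.8 of Smc1a, 9.0 of Smc3, 5.8 of Rad21 and fewer than 3 of the others. These fragment numbers are approximate for genes with several isoforms and cover counting error only.

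**Figure D1:**
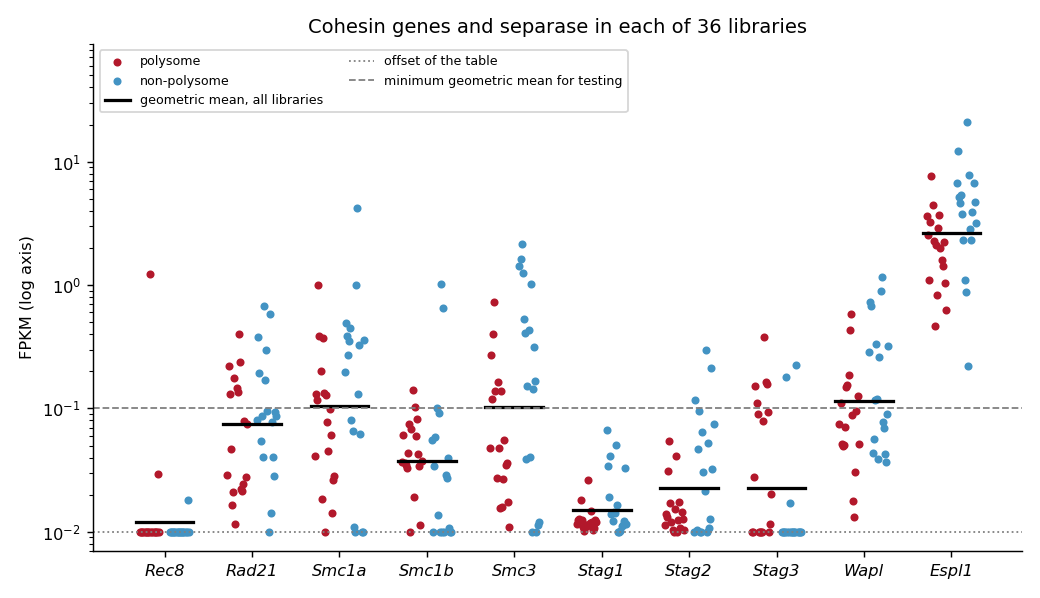
FPKM of each of the 10 genes in each of 36 libraries on a log axis, polysome libraries in red and non-polysome libraries in blue. The black bar is the geometric mean over all libraries, the dotted line the offset of 0.01 FPKM and the dashed line the minimum of 0.1 FPKM for testing. Espl1 lies above 0.1 FPKM in every library, while Rec8 lies at the offset in 33 of 36.

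Differences between groups were tested in the 7967 of 23125 genes whose geometric mean reached 0.1 FPKM, by limma on log2 FPKM with Benjamini-Hochberg adjusted p-values. A gene was called at an adjusted p below 0.05 and a fold change beyond 2. Of the 10 genes, 4 passed the minimum (Smc1a, Smc3, Wapl and Espl1) and 6 did not. Smc3 (0.102 FPKM) and Smc1a (0.104 FPKM) lie just inside the minimum and Rad21 (0.0741 FPKM) is the nearest outside.

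The levels were set beside those of other genes with transcripts of like length. The median geometric mean of protein-coding genes fell from 0.104 FPKM for transcripts of 1000 to 2000 bases to 0.0292 FPKM for those over 6000 bases. In the same classes the share of genes that passed the minimum fell from 50.51% to 21.08%. All members but Rec8 have transcripts of 3956 bases or more. Among all 16151 protein-coding genes, of any length, Espl1 (6658 bases) stood higher than 90.8% and Wapl (6351 bases) higher than 62.2%. Stag1 (6186 bases) was higher than 23.4% and Rec8, the shortest with 2184 bases, higher than 13.8%.

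**Figure D2:**
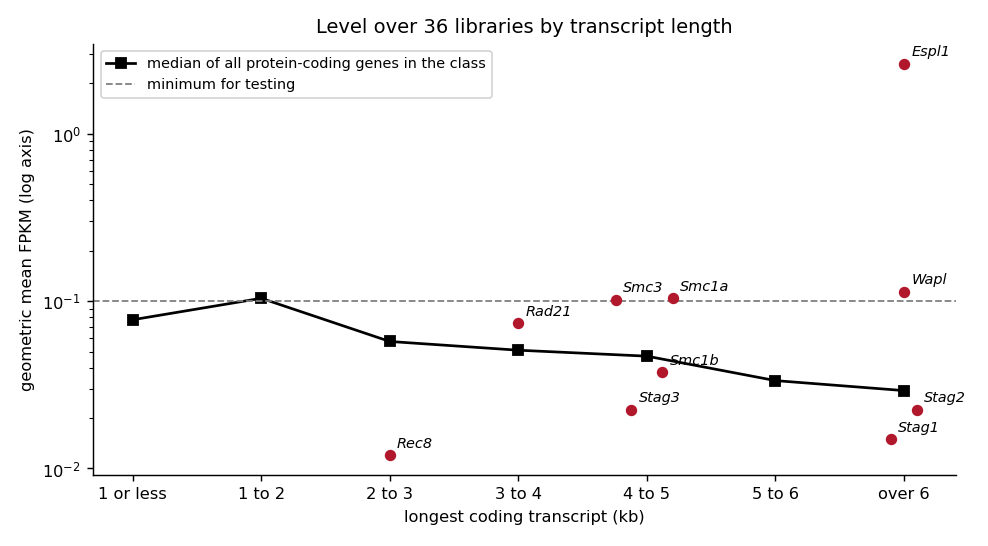
Geometric mean FPKM over 36 libraries on a log axis against the length class of the longest coding transcript, with the median of all protein-coding genes per class (black squares), the 10 genes (red points) and the minimum for testing (dashed line). Espl1 with 2.63 FPKM stands far above the median of 0.0292 FPKM of its class, and Rec8 with 0.012 FPKM below that of its own.

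Rec8, the meiotic kleisin whose cleavage releases homologues and then sister chromatids, was at the offset in 33 of 36 libraries. The exceptions were polysomes of two-cell M replicate A with 1.23 FPKM, about 51.9 fragments, polysomes of zygote M replicate B with 0.0293 FPKM and the non-polysome fraction of zygote M replicate B with 0.0181 FPKM. All 12 GV and MII libraries were at the offset, and at the median depth 3 fragments of Rec8 correspond to 0.0653 FPKM. Rec8 was thus not detectable in oocytes at this depth. The single high value stood alone in its group, since two-cell M replicates B and C were at the offset.

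Rad21, the mitotic kleisin, was above the offset in 35 of 36 libraries. In polysomes it measured 0.0287, 0.219 and 0.13 FPKM in GV (replicates A, B and C) and 0.0469, 0.0165 and 0.0212 in MII. In zygotes (replicates B, C and D) it was 0.0221, 0.0216 and 0.0246 and in zygote M (A, B and C) 0.0789, 0.0277 and 0.0745. In two-cell embryos it was 0.177, 0.0116 and 0.147 and in two-cell M 0.135, 0.4 and 0.236. All 3 two-cell M values stood above all 3 MII values, and all 3 zygote M values above all 3 zygote values, while GV and MII overlapped. Here and below, the share of all genes whose libraries separate between stages in this way was not counted. Such statements therefore describe the values only. In the non-polysome fraction Rad21 was between 0.169 and 0.675 FPKM in two-cell embryos and between 0.01 and 0.58 FPKM elsewhere. Rad21 was not tested by the main rule. With no minimum, all 23125 genes were tested, and Rad21 was then called lower in polysomes of MII than of two-cell M (log2 fold change -3.20, SE 1.15, adjusted p = 0.0359), where 29.1% of genes were called. The MII value rests on about 4.3 fragments in all and that of two-cell M on about 41.8. Globin markers of red blood cells summed to 0 in these MII polysomes and to 24.3 to 42.5 FPKM in those of two-cell M. Of these markers, Hbb-bs and Hbb-bt were at the offset in both groups. The part of such cells in the difference was not tested. In the same fit the stage effect of Rad21 in polysomes did not pass (limma's F-test, adjusted p = 0.139). Zygote M against zygote was not called by limma (log2 fold change 1.27, adjusted p = 0.832).

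Of the SMC subunits, which form the arms of the ring, the meiotic Smc1b was the lowest. In polysomes it lay between 0.01 and 0.14 FPKM and in the non-polysome fraction between 0.01 and 1.02 FPKM, with under 10 fragments in 33 of 36 libraries. Its level gives no order of the stages.

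Smc1a, its mitotic counterpart, was highest in MII polysomes, at 0.994, 0.387 and 0.202 FPKM in replicates A, B and C. It was 0.0412, 0.13 and 0.116 FPKM in GV, 0.0456, 0.0987 and 0.0611 in zygotes (B, C and D) and 0.0141, 0.0264 and 0.0284 in zygote M. It spread more widely in two-cell embryos, at 0.0184, 0.37 and 0.133 FPKM, and in two-cell M, at 0.01, 0.128 and 0.0781. MII stood above GV, zygote, zygote M and two-cell M in every library, and zygote M below zygote. In the order of medians (MII, two-cell, GV, two-cell M, zygote, zygote M) every pair of neighbours but zygote and zygote M overlapped. In the non-polysome fraction Smc1a ranged from 0.01 to 4.22 FPKM, and two-cell M alone covered this range with 0.01, 1.01 and 4.22 FPKM.

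By limma, Smc1a was called in none of the 21 comparisons, and 3 had an unadjusted p below 0.05. In MII against zygote M polysomes its log2 fold change was 4.28 (SE 1.55, adjusted p = 0.0696, 95% confidence interval 1.11 to 7.45). After quantile normalization it was 2.58 (adjusted p = 0.123). It was called there when 0.1 was added to each value (adjusted p = 0.0493), when the other groups were left out of the fit (0.00401) or when groups were weighted by their spread (4.54e-05). In MII against GV the log2 fold change was 2.32 (adjusted p = 0.47), in zygote M against zygote -1.57 (adjusted p = 0.778) and between two-cell M and two-cell embryos -1.06 (adjusted p = 0.624). After quantile normalization the last 2 values were 0.32 and 0.82, and without two-cell M replicate A the last was 0.05. Between the same stages of the non-polysome fraction the log2 fold change was 3.18 (adjusted p = 0.114), called with 0.1 or 1 added (adjusted p 0.0148 and 0.00554). Without two-cell M non-polysome replicate A, the library at the offset, it was 5.74 (adjusted p = 0.00184).

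Smc3, the arm common to both rings, was also highest in MII among the polysome groups. It measured 0.403, 0.726 and 0.138 FPKM in MII (replicates A, B and C), 0.0474, 0.269 and 0.119 in GV, and 0.0267, 0.0551 and 0.0346 in zygotes (B, C and D). In zygote M it was 0.036, 0.0173 and 0.0109 FPKM, in two-cell embryos 0.0272, 0.165 and 0.048, and in two-cell M 0.0157, 0.138 and 0.0159. All MII libraries stood above all zygote and zygote M libraries, and MII replicate C and two-cell M replicate B met at 0.138 FPKM. In the order of medians (MII, GV, two-cell, zygote, zygote M, two-cell M) every pair of neighbours overlapped.

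Smc3 had a stage effect in polysomes by limma's moderated F-test (adjusted p = 0.0359), as 62.9% of the genes tested had. With no minimum this call was lost (adjusted p = 0.0599), and it was also lost with 1 added to each value. It was higher in MII than in zygote M polysomes by a log2 fold change of 4.18 (SE 1.19, adjusted p = 0.0183), a comparison in which 12.4% of genes were called. The call was lost without MII replicate A or B or zygote M replicate B or C (adjusted p up to 0.0985). It was also lost after quantile normalization (log2 fold change 2.23, adjusted p = 0.0778). With 1 added to each value the log2 fold change was 0.457, and values below 1 FPKM cannot then reach a fold change of 2. Zygote M polysomes held about 3.5 fragments of Smc3 in all 3 libraries together. Markers of cumulus and granulosa cells, 10 of the 11 listed being in the table, summed to 0.789 to 4.77 FPKM in MII polysomes and 0.0393 to 0.13 FPKM in zygote M polysomes. Amh, Foxl2, Has2 and Tnfaip6 were at the offset in both groups. The oocytes had been freed of cumulus cells before culture. The part of such cells in the difference was not tested.

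Smc3 was also higher in MII than in two-cell M polysomes, by a log2 fold change of 3.40 (SE 1.19, adjusted p = 0.0181). Here 53% of genes were called and the median over all genes tested was 2.64, so that Smc3 stood 0.75 above the median gene. After quantile normalization, which brings that median to 0.14, the fold change of Smc3 was -1.25 (adjusted p = 0.286), the opposite direction. The call was also lost without MII replicate B or two-cell M replicate A or C (adjusted p up to 0.0813). It did not hold with weights per group (adjusted p = 0.0583). With 1 added to each value no call could arise, as these values all lie below 1 FPKM. Globin markers of red blood cells summed to 0 in MII polysomes and to 24.3 to 42.5 FPKM in those of two-cell M, with Hbb-bs and Hbb-bt at the offset in both. The part of such cells was not tested. In the comparisons of M-phase with interphase in polysomes its log2 fold changes were 1.58 for MII against GV (adjusted p = 0.541), -0.97 for zygote M against zygote (adjusted p = 0.841) and -0.88 for two-cell M versus two-cell (adjusted p = 0.593). The last 2 turned to 0.69 and 1.77 after quantile normalization.

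Within the non-polysome fraction, Smc3 was highest in GV. It measured 1.43, 1.64 and 2.16 FPKM in GV, 1.26, 0.529 and 0.408 in MII and 0.145, 0.314 and 0.167 in zygotes. In zygote M it was 0.01, 0.0113 and 0.0119 FPKM, all at or next to the offset, in two-cell embryos 0.0388, 0.151 and 0.435, and in two-cell M 0.0406, 1.02 and 0.01. GV stood above all other groups in every library, and zygote M below zygote without overlap. Smc3 was called lower in zygote M than in zygote of this fraction (adjusted p = 0.0228), where 10.4% of genes were called. The zygotes held about 68.9 fragments in all and zygote M 0.3, so zygote M was at least 19.7-fold lower with a floor of 3 fragments over the group. The call was lost without zygote replicate C or D or zygote M replicate A or B (adjusted p up to 0.0943). It was also lost with 0.1 added to each value (0.139) and after quantile normalization, where the log2 fold change was -0.19. With 1 added no call could arise, as the values of both groups lie below 1 FPKM.

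The SA subunits bind the kleisin and were low throughout. Stag1 reached at most 0.0668 FPKM and held under 10 fragments in all 36 libraries. Stag2 reached 0.296 FPKM, with under 10 fragments in 32 libraries. For these mitotic subunits no order of the stages could be read at this depth.

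Stag3, the meiotic SA subunit, was at the offset in 22 libraries, and its polysome values fell on few stages. It measured 0.152, 0.111 and 0.0907 FPKM in MII polysomes (replicates A, B and C) and 0.164, 0.157 and 0.0942 in zygote polysomes (B, C and D). In GV it was 0.01, 0.01 and 0.0276 FPKM, in zygote M 0.01, 0.0115 and 0.0201, and all 3 two-cell libraries were at the offset. In two-cell M polysomes it was 0.01, 0.0791 and 0.377 FPKM. MII and zygote thus stood above GV, zygote M and two-cell in every library and overlapped each other, while two-cell M covered both ranges. How many of all genes separate between these stages was not counted. The non-polysome fraction held Stag3 above the offset in 3 of 18 libraries, MII replicate B (0.18 FPKM), zygote replicate C (0.223 FPKM) and two-cell replicate B (0.017 FPKM).

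Stag3 was not tested by the main rule. With no minimum, its stage effect in polysomes passed (adjusted p = 0.00805, as for 36.6% of the 23125 genes), and it was called lower in two-cell than in zygote polysomes (adjusted p = 0.0213), where 10.5% of genes were called. The zygote polysomes held about 35.5 fragments in all and the two-cell polysomes none, which makes the two-cell level at least 10.8-fold lower with a floor of 3 fragments over the group. Globin markers of red blood cells summed to 34.3 to 83.6 FPKM in these two-cell polysomes and to 0 to 0.102 FPKM in those of zygotes. Nearly all of this came from Hba-a1, and Hbb-bt was at the offset in both groups. The part of such cells in the difference was not tested. Without the minimum, limma did not call Stag3 in MII against GV (log2 fold change 3.04, adjusted p = 0.144) or zygote M against zygote (-3.35, 0.0913). Nor did it in GV against zygote (-3.26, 0.103) or MII against zygote M (3.12, 0.0876).

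**Figure D3:**
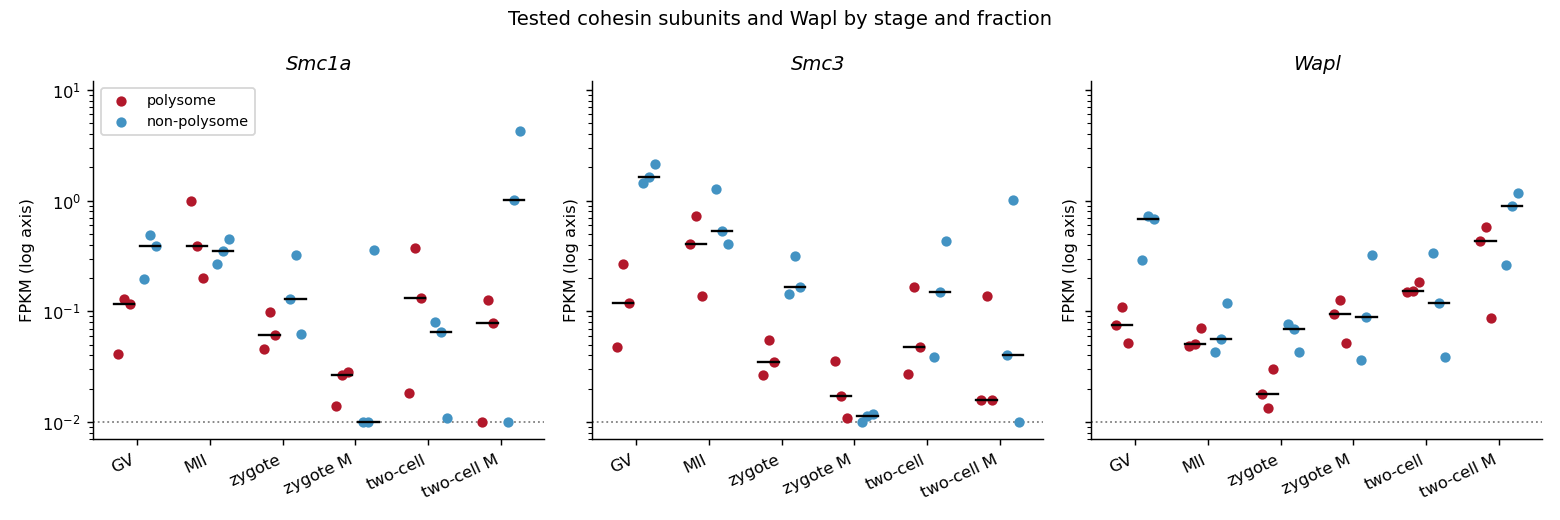
FPKM of Smc1a, Smc3 and Wapl on a log axis in the 6 stages, polysome libraries in red and non-polysome libraries in blue, 3 points per group with the median as a black bar and the offset of 0.01 FPKM dotted. Smc1a and Smc3 have their highest polysome median in MII (0.387 and 0.403 FPKM), whereas that of Wapl is in two-cell M (0.436 FPKM).

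Wapl, which opens the ring without cleavage, was above the offset in all 36 libraries. In polysomes it measured 0.0754, 0.11 and 0.0514 FPKM in GV, 0.0492, 0.0504 and 0.0705 in MII (replicates A, B and C) and 0.0178, 0.0133 and 0.0303 in zygotes (B, C and D). It was 0.0955, 0.126 and 0.0516 FPKM in zygote M, 0.15, 0.154 and 0.185 in two-cell embryos and 0.436, 0.579 and 0.0878 in two-cell M. The zygote libraries were the lowest of all polysome libraries, and the two-cell libraries stood above every GV, MII, zygote and zygote M library. In the order of medians (two-cell M, two-cell, zygote M, GV, MII, zygote) the neighbours two-cell and zygote M, and MII and zygote, did not overlap. The other neighbours did.

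The stage effect of Wapl in polysomes passed the test (limma's F-test, adjusted p = 0.00641), as it did for 62.9% of the genes tested. With 1 added to each value it did not pass. Wapl was higher in two-cell than in zygote polysomes by a log2 fold change of 3.07 (SE 0.86, adjusted p = 0.0141), while the median gene changed by -0.98 and 16% of genes were called. Zygote polysomes held about 4.5 fragments of Wapl in all and two-cell polysomes about 58.7. The call was lost without zygote replicate B or C (adjusted p 0.05 and 0.0687) and with 0.1 added to each value (0.0912). With 1 added the log2 fold change was 0.189, and values below 1 FPKM cannot then reach a fold change of 2. The highest limma adjusted p over the 9 alternatives was 0.384. All 4 globin markers of red blood cells are in the table, and they summed to 34.3 to 83.6 FPKM in two-cell polysomes and to 0 to 0.102 FPKM in zygote polysomes, nearly all from Hba-a1. Hbb-bt was at the offset in both groups. The part of such cells in the rise was not tested. MII polysomes also held less Wapl than those of two-cell M, with a log2 fold change of -2.33 (SE 0.86, adjusted p = 0.0246), against a median gene that was higher in MII by 2.64. After quantile normalization the difference was larger, at -5.37. This call was lost without MII replicate A or B or two-cell M replicate A or B (adjusted p up to 0.118). It was also lost with only the groups compared (0.0595) or with weights per group (0.0912). With 1 added to each value the log2 fold change was -0.355, and values below 1 FPKM cannot then reach a fold change of 2. The globin markers summed to 0 in MII polysomes and to 24.3 to 42.5 FPKM in those of two-cell M, with Hbb-bs and Hbb-bt at the offset in both.

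In the comparisons of M-phase with interphase in polysomes, the log2 fold change of Wapl was -0.43 in MII against GV (adjusted p = 0.872), 2.14 in zygote M against zygote (SE 0.86, unadjusted p = 0.0189, adjusted p = 0.173) and 0.79 for two-cell M versus two-cell (adjusted p = 0.497). All zygote M libraries stood above all zygote libraries. The zygote M difference was called when the fit held only the groups compared (adjusted p = 0.0258) or weighted groups by their spread (adjusted p = 0.000317). The two-cell M difference was called after quantile normalization, at 2.55 (adjusted p = 0.00404).

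In the non-polysome fraction Wapl was highest in GV and two-cell M. GV had 0.288, 0.723 and 0.677 FPKM and MII 0.0432, 0.0561 and 0.118, without overlap. Wapl was called lower in MII than in GV (log2 fold change -2.98, SE 0.86, adjusted p = 0.0167), where 16.6% of genes were called. The call was lost without MII replicate A or B or GV replicate B (adjusted p up to 0.073) and with only the groups compared (0.0526). With 1 added to each value the log2 fold change was -0.531, short of a fold change of 2, which values below 1 FPKM cannot then reach. Cumulus and granulosa markers summed to 0.0151 to 0.124 FPKM in GV and 0.0679 to 23.9 FPKM in MII of this fraction. Amh, Foxl2, Has2, Tnfaip6 and Lhcgr were at the offset in both groups. The part of such cells in the difference was not tested. Zygotes had 0.0772, 0.069 and 0.0429 FPKM, zygote M 0.0367, 0.0896 and 0.322, two-cell embryos 0.334, 0.12 and 0.0386 and two-cell M 0.26, 0.891 and 1.16. These last groups overlapped at 0.26 and 0.334 FPKM. Two-cell M was called higher (log2 fold change 2.48, SE 0.86, adjusted p = 0.0251), where 36.1% of genes were called. The call was lost without two-cell replicate C or two-cell M replicate B or C (adjusted p up to 0.164). It was also lost with equal sums of FPKM (0.0853), with only the groups compared (0.344) or with weights per group (0.467). With 1 added to each value the log2 fold change was 0.575, short of a fold change of 2. The globin markers summed to 99.6 to 162 FPKM in two-cell embryos and 0 to 52.5 FPKM in two-cell M of this fraction. Hbb-bs and Hbb-bt were at the offset in both groups. The part of such cells in the difference was not tested.

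Espl1, the protease that cleaves the kleisin once its inhibitor securin is gone, was at 1 FPKM or more in 31 of 36 libraries. In polysomes it measured 3.66, 2.55 and 1.1 FPKM in GV, 3.24, 7.71 and 4.49 in MII (replicates A, B and C) and 1.99, 1.61 and 1.44 in zygotes (B, C and D). It was 2.25, 1.04 and 0.625 FPKM in zygote M, 2.26, 0.463 and 2.13 in two-cell embryos and 0.838, 2.92 and 3.71 in two-cell M. MII stood above zygote and zygote M in every library, and in the order of medians (MII, two-cell M, GV, two-cell, zygote, zygote M) every pair of neighbours overlapped.

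In the non-polysome fraction Espl1 was 6.77, 12.3 and 5.13 FPKM in GV, 4.61, 5.35 and 3.79 in MII and 2.87, 2.34 and 3.94 in zygotes. It was 6.72, 4.69 and 3.21 FPKM in zygote M, 2.32, 1.09 and 0.879 in two-cell embryos and 20.9, 0.22 and 7.85 in two-cell M. The two-cell M libraries held both the highest and the lowest value of Espl1 in this fraction.

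By limma, Espl1 was called in none of the 21 comparisons, none had an unadjusted p below 0.05, and its stage effect in polysomes did not pass (adjusted p = 0.46). The log2 fold change in polysomes was 1.15 for MII against GV (95% confidence interval -0.94 to 3.24, adjusted p = 0.628), -0.55 for zygote M against zygote (-2.64 to 1.54, adjusted p = 0.929) and 0.67 for two-cell M versus two-cell (-1.42 to 2.76, adjusted p = 0.639). Without two-cell replicate B the last value was -0.08. In MII against zygote M it was 2.09 (SE 1.02, unadjusted p = 0.0501, adjusted p = 0.211), which was called when only the groups compared were fitted (adjusted p = 0.0234) or groups were weighted by their spread (adjusted p = 0.000466).

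**Figure D4:**
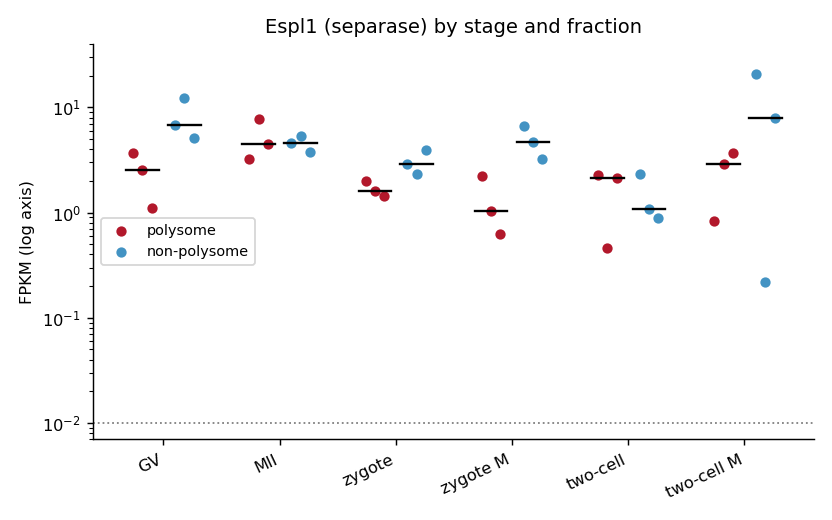
FPKM of Espl1 on a log axis in the 6 stages, polysome libraries in red and non-polysome libraries in blue, 3 points per group with the median as a black bar and the offset of 0.01 FPKM dotted. The polysome values lie between 0.463 and 7.71 FPKM, with the highest median in MII (4.49 FPKM).

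The fractions were compared at each stage to ask where a transcript sits in the gradient. In GV the tested members were lower in polysomes than in the non-polysome fraction. The log2 fold change was -3.90 for Smc3 (SE 1.19, adjusted p = 0.0539) and -2.79 for Wapl (SE 0.86, adjusted p = 0.0578). It was -1.97 for Smc1a (SE 1.55, adjusted p = 0.512) and -1.79 for Espl1 (SE 1.02, adjusted p = 0.342). For these genes the groups did not overlap, but none was called, while 4.96% of genes were. Of all genes tested, 13.9% had every polysome value in GV below every non-polysome value. The unadjusted p was below 0.05 for Smc3 and Wapl, the only such values among the 24 tests of the members over the 6 stages by limma. Of all genes, 0.753% were called in MII, 1.38% in zygote, 1.92% in zygote M, 16.1% in two-cell embryos and 14.8% in their M-phase. The median gene was higher in GV polysomes by 0.56. Smc3 was called in 5 of 9 alternatives, namely with the gradient as a block (adjusted p = 0.019), with weights per group (0.0383), with 0.1 or 1 added to each value (0.0028 and 5.03e-05) and after quantile normalization (0.000435). Wapl was called with 0.1 added to each value (adjusted p = 0.017) and after quantile normalization (adjusted p = 0.000791). In zygote M, Espl1 was lower in every polysome library than in any non-polysome library (-2.04, adjusted p = 0.425). In zygotes the same held for Espl1, Smc3 and Wapl, none of which was called (limma adjusted p 0.694 or higher, unadjusted p 0.0523 or higher). Such separation was seen for 10.8% of all genes tested in zygote M and 31.3% in zygotes.

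Over the 3 comparisons of M-phase with interphase in polysomes, limma called none of the 4 tested members, and 1 of 12 tests had an unadjusted p below 0.05 (Wapl in zygote M). The share of genes called was 6.11% in MII against GV, 5.75% in zygote M against zygote and 36.3% in two-cell M versus two-cell. The remaining comparisons of stages in polysomes, 6 in all, gave the 4 calls of Smc3 and Wapl described above. In those with no member called, 5.61% of genes were called in GV against zygote, 16.7% in GV against two-cell and 4.57% in zygote against MII. The change in polysomes was not called different from that in the non-polysome fraction by limma for any of the 4 tested members. Of 12 unadjusted p-values, 1 was below 0.05 (Wapl, MII against GV), and 0.163%, 0.289% and 5.75% of genes were called.

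**Figure D5:**
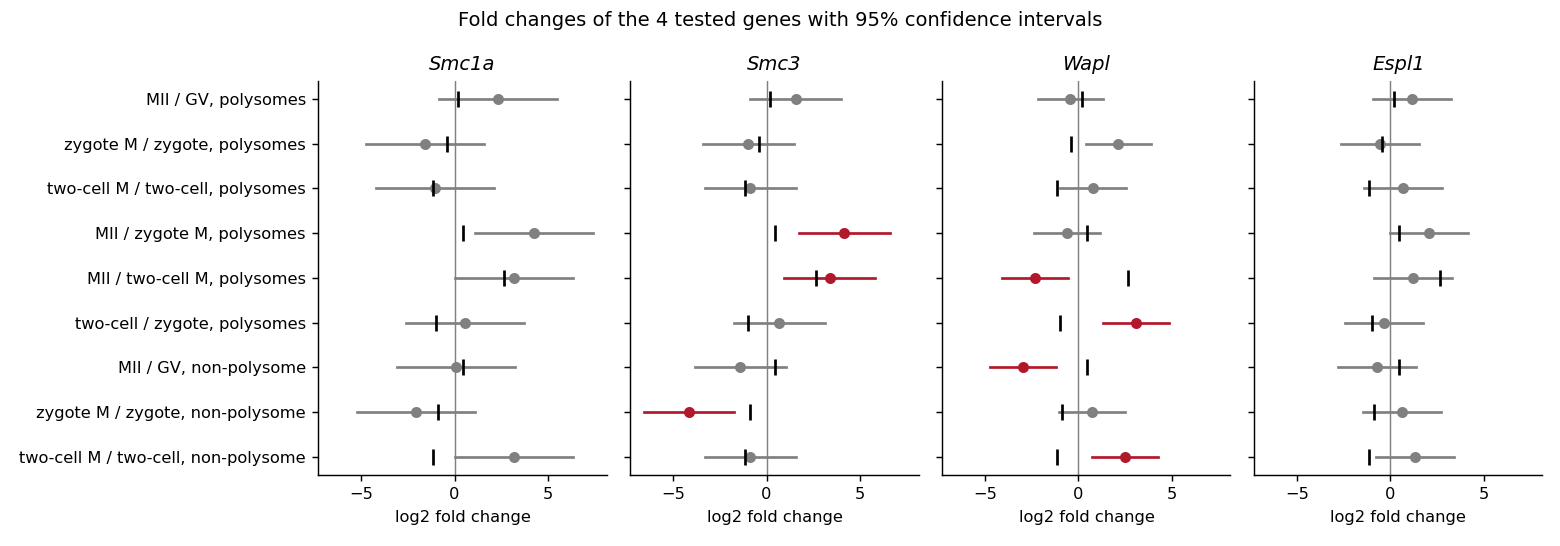
Log2 fold changes of the 4 tested genes in 9 comparisons between stages, with 95% confidence intervals from limma. Red marks a call (adjusted p below 0.05 and a fold change beyond 2), grey no call, and the black tick is the median of all 7967 genes tested. Calls fall on Smc3 and Wapl, and those in MII against two-cell M stand against a median of 2.64.

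The genes whose pattern over the 18 polysome libraries was most like that of each tested member were found by Pearson's correlation of log2 FPKM, a description over libraries that share stages and depth. Smc1a and Smc3 were among the 3 nearest of each other (r = 0.835). Nearest to Smc1a was Naa10 (r = 0.865), to Smc3 Exosc5 (0.854), to Wapl Pgam1 (0.897) and to Espl1 Polr2k (0.825). The 7964 other tested genes were compared for each.

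Of the shugoshins, Sgo1, which guards mitotic centromeres, had a geometric mean of 0.37 FPKM, above every cohesin gene but Espl1 and higher than 76.0% of protein-coding genes. Sgo2a, the guardian of Rec8 in oocyte meiosis, had 0.112 FPKM, higher than 61.9%. Sgo2b (0.0224 FPKM) and Meikin (0.0387 FPKM), a meiotic kinetochore protein that works with shugoshin, were under the minimum. In polysomes Sgo2a measured 0.102, 0.191 and 0.114 FPKM in GV and 0.503, 0.624 and 0.0667 in MII. It was 0.0293, 0.0198 and 0.0157 FPKM in zygotes and between 0.01 and 0.0704 FPKM at the later stages. All GV values stood above all later embryo values. MII polysomes held more Sgo2a than those of two-cell M (log2 fold change 3.62, SE 1.54, limma adjusted p = 0.0485, about 3.1 fragments in two-cell M). Here the median gene stood at 2.64 and 53% of genes were called. The globin markers summed to 0 in MII and to 24.3 to 42.5 FPKM in two-cell M polysomes, with Hbb-bs and Hbb-bt at the offset in both. The part of such cells was not tested.

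Sgo1 in polysomes measured 1.13, 1.0 and 0.607 FPKM in MII and between 0.0362 and 1.99 FPKM elsewhere. In two-cell M it was 1.21, 0.477 and 0.0905 FPKM in polysomes and 0.0156, 0.01 and 0.01 FPKM in the non-polysome fraction, without overlap. It was called higher in polysomes there (adjusted p = 0.0143), with 14.8% of all genes called.

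Of the 14 genes listed for the protection of cohesin, 7 were tested. The PP2A subunit gene Ppp2r5b was called lower in polysomes of two-cell M (0.0163 to 4.47 FPKM) than of two-cell embryos (11.1 to 23.8 FPKM), and no other gene of the list was called in M-phase against interphase in polysomes. This is 1 of 7 genes, where 36.3% of all genes tested were called. The list's median in that comparison was -0.79 and that of all genes tested -1.17. At an unadjusted p below 0.05 there was 1 gene in each of the 3 comparisons.

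Of 13 genes for loading, establishment and release, 8 were tested. Cdca5, which encodes sororin, the antagonist of Wapl, had a geometric mean of 60.6 FPKM. In polysomes it measured 117, 116 and 163 FPKM in MII, 117, 114 and 116 in zygotes and 23.5, 27.2 and 20.2 in two-cell embryos. It fell from zygote to two-cell polysomes (log2 fold change -2.30, SE 0.38, adjusted p = 9.06e-05), without overlap. In this comparison, in which Wapl was called higher, Aurkc and Plk1 were also called lower, so that 3 of the 8 tested genes of the list were. The list's median was -1.30 and that of all genes tested -0.98, with 16% of genes called and the globin markers higher in two-cell polysomes as given for Wapl. The acetyltransferase genes Esco1 and Esco2 had geometric means of 0.279 and 1.96 FPKM, and the loader gene Mau2 0.639 FPKM. Its partner Nipbl (0.0514), Pds5a (0.0192), Pds5b (0.0177) and Rad21l (0.0125 FPKM), a further meiotic kleisin, were under the minimum. Mau2 was called higher in GV polysomes than in the non-polysome fraction (4.56, adjusted p = 0.0387) and Esco1 lower (-3.23, adjusted p = 0.041), as both were in two-cell embryos. In two-cell M, Esco1 was called in the opposite direction, with 0.0429 to 0.498 FPKM in polysomes and 0.01 to 0.0342 FPKM in the non-polysome fraction. In M-phase against interphase of polysomes only Aurkb of this list was called, lower in two-cell M (0.01 to 0.0561 FPKM) than in two-cell embryos (0.427 to 3.79 FPKM). This is 1 of 8 genes, where 36.3% of all genes tested were called.

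All 7 genes of separase control were tested, and all 7 had a stage effect in polysomes, beside 62.9% of all genes tested. Pttg1, which encodes securin, the inhibitor of separase, had a geometric mean of 500 FPKM against 2.63 FPKM for Espl1. Its polysome level was 408, 1030 and 367 FPKM in GV, 51, 55.1 and 51.4 in MII and 2940, 2170 and 2850 in zygote M. Zygotes had 259, 105 and 232 FPKM, two-cell embryos 495, 754 and 415 and two-cell M 86, 99 and 206. Pttg1 fell from GV to MII (-3.35, SE 0.37, adjusted p = 5.21e-07), rose from zygote to zygote M (3.83, SE 0.37, adjusted p = 2.61e-08) and fell from two-cell to two-cell M (-2.16, SE 0.37, adjusted p = 5.1e-05). In each of these the groups did not overlap, whereas those of Espl1 overlapped in all of them. Cdc20, which directs the destruction of securin, rose in all 3 (4.81, 6.16 and 1.39), and Ccnb1 (1.71 in MII), Cdk1 (-3.03, -2.30 and 2.17) and Fzr1 (-4.75 in two-cell M) were called as well. In all, 4 of 7 genes of the list were called in MII against GV, 3 of 7 in zygote M against zygote and 4 of 7 in two-cell M versus two-cell, where 6.11%, 5.75% and 36.3% of all genes tested were. The list's medians were 1.71, -0.06 and -1.24, beside 0.18, -0.43 and -1.17 for all genes tested.

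Of 14 genes of condensin and the Smc5/6 complex, 10 were tested and 6 had a stage effect, a share close to the 62.9% of all genes tested. Ncaph, a condensin kleisin, was called lower in zygote M (0.01 to 0.0445 FPKM) than in zygote polysomes (0.76 to 1.02 FPKM). Nsmce1 was called lower in polysomes of two-cell M (0.0143 to 0.555 FPKM) than of two-cell embryos (2.99 to 6.26 FPKM). The list's medians in these comparisons were -0.31 and -0.95, beside -0.43 and -1.17 for all genes tested.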

How the data were processed

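The authors trimmed the reads with Trim Galore 0.4.1, mapped them to GRCm38 with STAR 2.5.3a, quantified genes as FPKM and deposited 1 table of normalized FPKM for 23125 genes and 36 libraries, in which 0.01 had been added to every value. The labels also name Partek. RefSeq is named in the methods but the table's annotation looks like Ensembl, and GENCODE M21 was used here for lengths and 3′ ends. Of 38 samples, 2 from zygotes have no column and were not used. No counts were given. In single-exon genes, 70.55% of 21510 low values were whole multiples of 1 fragment within 0.05, which gave the depths of 8.49 to 26.7 M fragments.

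limma 3.58.1 (R 4.3.3) was run on log2 FPKM as deposited, without a pseudocount, as 12 group means of 36 libraries with a trended prior variance, and p was adjusted by Benjamini-Hochberg over the 7967 genes whose geometric mean reached 0.1 FPKM within each of 21 comparisons. Tests are two-sided. The scripts were tested on simulated data. The median residual SD was 1.63 on the log2 scale, and on this scale the changes of genes near the offset are understated. All 10 members are named, with the shugoshins, Meikin, Pttg1, the loading and establishment genes and any list gene called in M-phase against interphase in polysomes. Members, lists and tests were chosen with earlier results of these data known. Alternatives were 0.1 or 1 added, no minimum, a minimum of 1 FPKM, protein-coding genes only, quantile normalization, equal sums, only the groups compared, weights per group, a block for the replicate letter, or for the gradient, and leaving out each library. Libraries of the same letter shared little (mean residual correlation 0.02 for polysome and 0.018 for non-polysome libraries), and fractions of the same stage and letter had 0.076 (-0.006 to 0.167). Python 3.11.15 with numpy 2.4.6 and pandas 2.3.3 was used.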

Additional observations from a re-analysis of the deposited data

Results flagged for a closer look

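The interaction test compares a change in polysomes with the change in the other fraction. It called none of the 4 members tested, and the other 6 were under the minimum. Of the pathway lists, with 7, 8, 7 and 10 genes tested, it called 5 genes. There was 1 call in MII against GV, 2 in zygote M against zygote and 3 in two-cell M versus two-cell. Of all genes tested, 0.163%, 0.289% and 5.75% were called. For Cdc20 the change in polysomes exceeded that in the non-polysome fraction by 3.79 on the log2 scale in MII against GV (limma, adjusted p = 0.000333) and by 4.30 between zygote and zygote M (adjusted p = 2.85e-05). For Pttg1, the securin gene, it did so by 2.70 between the same stages (adjusted p = 0.0147). Between two-cell and two-cell M, Esco1 differed by 6.69 (adjusted p = 0.00186), Plk1, the gene of a mitotic kinase, by 6.09 (adjusted p = 0.000503) and Sgo1 by 6.56 (adjusted p = 0.0458). Plk1 measured 0.0335 to 0.213 FPKM in two-cell M of the non-polysome fraction and 1.16 to 21.2 FPKM in two-cell embryos. Esco1 and Sgo1 were at or next to the offset in all 3 two-cell M non-polysome libraries, so their sizes depend on the offset. Groups of 3 libraries were not searched for single deviating values.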

How the results depend on the processing

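Among the tested members, 2 had a stage effect in polysomes. The number was 1 with 0.1 added to each FPKM, 0 with 1 added or a minimum of 1 FPKM, and 4 with weights per group, while the share of all genes rose from 62.9% to 69.5%, 68.4%, 70.7% and 83%. The other stage comparisons in polysomes gave 4 calls, and 0 with 1 added or a minimum of 1 FPKM, 10 with only the groups compared and 9 with weights, of 24 tests. The last 2 settings called 35.1% and 36.9% of all tests over genes, against 18% as reported. With 1 added, Smc1a, Smc3 and Wapl, below 1 FPKM in every polysome library, could not reach a fold change of 2. The minimum of 1 FPKM left Espl1 alone of the members. M-phase against interphase in polysomes gave 0 calls, and 1 after quantile normalization, with only the groups compared or with weights. M-phase against interphase in the non-polysome fraction gave 3, and 1 with 1 added or only the groups compared and 0 with a minimum of 1 FPKM, which leaves Espl1 alone of the members. Polysome against non-polysome gave 0 calls, and 3 with 0.1 added or weights, 2 with 1 added or quantile normalization and 1 with only the groups compared. The gradient as a block, which pairs the fractions of a stage and letter, gave 1 (Smc3 in GV). The replicate letter as a block moved no count by more than 1.5 times. Leaving out each library in turn, the counts ranged from 1 to 2, 1 to 6, 0 to 0, 2 to 4 and 0 to 2 in the order above, and from 0 to 1 for the change in polysomes against that in the non-polysome fraction. The stage count fell to 1 without two-cell M A or C, MII A or B, zygote B or zygote M B or C of the polysome libraries, and the other stage comparisons fell to 2 or 1 without two-cell M A, MII A or MII B. Polysome against non-polysome rose to 1 or 2 without two-cell A or C, any of two-cell M or zygote M A or C of the non-polysome libraries or without two-cell M B or C of the polysome libraries, and the last count rose to 1 without two-cell M non-polysome A. Quantile normalization reversed Smc3 in polysomes of MII against two-cell M (-1.25), zygote M against zygote (0.69) and two-cell M against two-cell (1.77), and Smc1a in the last 2 (0.32 and 0.82). For two-cell M against two-cell in polysomes, leaving out single libraries moved Espl1 between -0.075 and 1.33 and Smc1a between -2.26 and 0.048. Beyond the scaling itself, the cause was not tested. With no minimum the count stayed at 2, but Stag3 passed (adjusted p = 0.00805) and Smc3 did not (0.0599). About 10 fragments or fewer stand behind the median library of every member but Espl1.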
